A study of Homo sapiens with 6 samples.

Results

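The 38 genes described here encode subunits of the mitochondrial respiratory chain and ATP synthase that are made from nuclear DNA: 4 of complex II, 9 of complex III, 10 of complex IV and 15 of complex V. They were taken by symbol from the deposited FPKM table (fragments scaled to gene length and library size), which still uses the older ATP5 names, and were joined by Ensembl identifier to the count tables, where each matched 1 of 60675 genes. RNA bound by J2, an antibody against double-stranded RNA, had been precipitated from OCI-AML2, a human acute myeloid leukaemia cell line, and sequenced as directional libraries. The cells of 3 libraries carried a hairpin against PNPT1, a mitochondrial exoribonuclease, and those of the other 3 a hairpin against SUPV3L1, the helicase that works with it. The submitters describe 3 biological replicates a group. The library names end in a number whose meaning the labels do not state, so it is unknown here if 1 hairpin was used within a group. No untreated or non-targeting control and no RNA from before precipitation was analysed here. Each difference below is therefore SUPV3L1 knockdown against PNPT1 knockdown in precipitated RNA, in which a change in a gene's expression and a change in its precipitation cannot be told apart, nor can fewer cells with an RNA and less of it per cell.

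Complex II (succinate dehydrogenase) passes electrons from succinate to ubiquinone, complex III hands them to cytochrome c, and complex IV (cytochrome c oxidase) to oxygen. Complexes III and IV pump protons on the way, and complex V, ATP synthase, uses the return flow of protons to make ATP. Complex II is wholly nuclear-encoded, whereas complexes III, IV and V each combine nuclear subunits with a few that are made inside the mitochondrion, so that products of 2 genomes have to be matched. Many nuclear subunit genes are known to be driven by the factors NRF1 and GABP, the latter of the ETS family.

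The promoters show what many members share apart from function. Of the 38 genes, 30 had an entry among the RefSeq promoters (GRCh38.p14), which run from 250 bases before a start site to 50 after it. SDHC, CYC1, UQCRB, COX6C, ATP5B, ATP5D, ATP5G3 and ATP5J2 had none. The ETS core CCGGAAG, or its reverse complement CTTCCGG, was found for 15 of the 30 members and for 12.2% of the 27305 genes with a promoter. By complex, the count was 2 of 3 in complex II, 3 of 7 in complex III, 5 of 9 in complex IV and 5 of 11 in complex V. A strict 10-base form of the NRF1 site, a palindrome whose letters are the capitals in the SDHD and ATP5C1 lines, was found for those 2 of 30 members and for 1.52% of all genes with a promoter. The SP-factor core GGGCGG or CCGCCC was found for 18 of 30 members and 48.3% of all genes with a promoter. These are matches of letters on either strand, and binding was not measured. Sites of 30 bases are shown so that the shared letters can be seen: the NRF1 palindrome in SDHD and ATP5C1, and 1 ETS core from each of 5 members that the results below describe, with the match in capitals and each site read in the direction of its gene. On the plus strand they lie at chr11:112086753-112086782 (SDHD), chr10:7788145-7788174 (ATP5C1), chr1:46303641-46303670 (UQCRH), chr2:97646014-97646043 (COX5B), chr11:63974591-63974620 (COX8A), and on the minus strand at chr1:17054142-17054171 (SDHB), chr19:1605561-1605590 (UQCR11).
SDHD: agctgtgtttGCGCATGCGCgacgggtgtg
ATP5C1: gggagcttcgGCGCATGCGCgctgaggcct
SDHB: cacccgggaaaCCGGAAGccgcctcccact
UQCRH: agtgtgccgcaCTTCCGGccagatcgccgg
UQCR11: tccaaccctcgCCGGAAGttactgtaagtg
COX5B: gaagcccgcccCCGGAAGtccctcctgtct
COX8A: cagctccagaaCTTCCGGccagcgcagcca
The match begins 110 bases before the RefSeq start in SDHD, 22 in ATP5C1, 128 in SDHB, 46 in UQCRH, 117 in UQCR11, 37 in COX5B and 18 in COX8A.

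The libraries had 5852090 to 11361371 counts assigned to genes, of which the 38 members took 0.209% to 0.405%. Single member counts ranged from 15 to 3731. Among the libraries, PNPT1 knockdown replicate 3 stood apart, with the fewest assigned counts, the fewest genes detected (16620 against 20765 to 22393), the highest share of alignments that were not unique (80.1% against 65.7% to 71.6%) and the lowest TMM scaling factor (0.669 against 0.988 to 1.21). Fitted differences that rest on it are given with and without it for the members, the complexes and the named members. Some of these appear only as ranges in a later section. For some genes of other lists, only the list median is given without it. As a check of the labels, PNPT1 RNA stood at 7.66, 18.9 and 17.1 CPM in its own knockdown and at 36.3, 27.6 and 21.4 CPM in the other. SUPV3L1 RNA stood at 12.2, 12.3 and 9.42 CPM in its own knockdown and at 11.5, 18.2 and 25.8 CPM in the other. Neither passed the test (log2 fold changes 0.97 ± 0.41 and -0.70 ± 0.39, SE, edgeR adjusted p = 0.898 for both). Of 8 myeloid markers, PTPRC, CD33, SPI1, CEBPA, CSF3R and FLT3 had 114 counts or more in each library, MPO had 10 to 75 and KIT 0 to 5. Of 11 markers of lymphoid, erythroid and megakaryocyte cells, ITGA2B had 2 to 32 counts and the others 0 to 5.

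None of the 38 members passed a test between the knockdowns. With 13275 genes in the edgeR quasi-likelihood fit and p-values adjusted by Benjamini-Hochberg over all of them, 0 of 38 passed an adjusted p of 0.05 (smallest adjusted p = 0.898), where 0% of all genes passed. At an unadjusted p under 0.05 there were also 0 of 38 members, against 4.09% of all genes tested, and DESeq2 called 0 of 38, against 0.136%. In CPM (read counts scaled to library size with TMM factors) no member had groups free of overlap, against 8.56% of all genes (SUPV3L1 knockdown higher for 4.62% and lower for 3.94%). All 38 members passed the filter on low counts. Their log2 fold changes leaned to one side without passing: 31 of 38 were below 0 (lower in SUPV3L1 knockdown), against 49.3% of all genes tested, with a median of -0.41 against 0.01 for all genes.

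That lean rested on 1 library. PNPT1 knockdown replicate 3 had the highest CPM of the 6 libraries for 34 of 38 members (89.5%), against 30.6% of all genes tested. That count is after TMM scaling. On plain library sizes it was 23 of 38 (60.5%), against 11.1% of all genes tested. On FPKM it was 20 of 38 (52.6%), against 9.24%. With that library left out, 29 of 38 members lay above 0 and 9 below, and the median log2 fold change was 0.17, against 0.01 for all genes. Its level relative to the mean of the other PNPT1 knockdown libraries had a median of 1.24 over the members and -0.11 over all genes, on the log2 scale. On plain library sizes these medians were 0.44 and -0.90, and on FPKM 0.37 and -0.97. A change of scaling shifts all genes of a library alike. Between the 2 CPM scales, the members' median relative to that of all genes therefore hardly differs by construction. It was 1.35 higher after TMM scaling and 1.34 higher on plain library sizes. FPKM is a separate deposited measure, so its value of 1.34 is not fixed in this way. What the low depth and the high share of alignments that were not unique contribute was not tested.

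**Figure D1:**
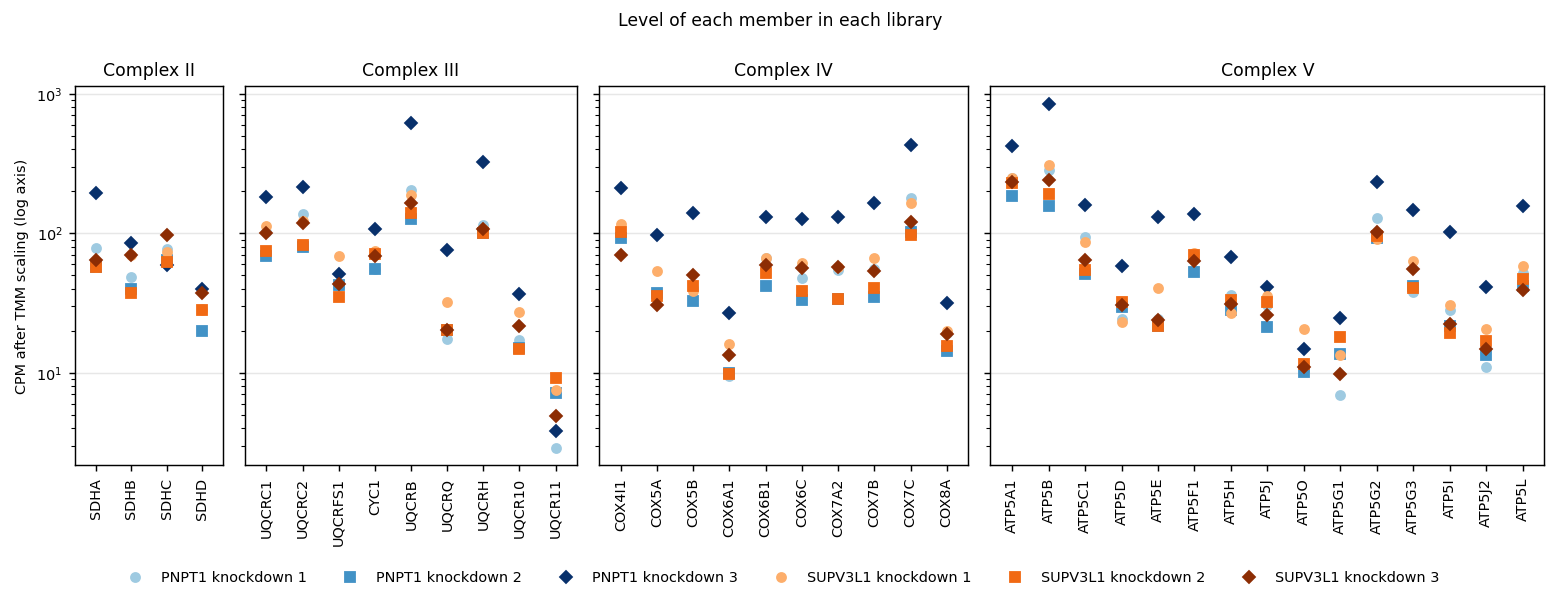
CPM after TMM scaling (log axis) of each of the 38 genes, by complex, with 1 point for each of the 6 libraries. The dark blue diamond, PNPT1 knockdown replicate 3, is the highest point for 34 of the 38 genes.

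Complex II holds 4 genes, and 3 of the 4 had log2 fold changes above 0 (median 0.06). SDHA (ENSG00000073578, GRCh38 chromosome 5, 218241 to 256700, plus strand) encodes the flavoprotein that oxidises succinate. It measured 78.9, 57.4 and 195 CPM with PNPT1 knocked down (replicates 1, 2 and 3 in turn, here and below), against 57.3, 57.3 and 64.4 CPM with SUPV3L1 knocked down. The SUPV3L1 knockdown values were close to each other and overlapped the low end of the other group. The fitted log2 difference (SUPV3L1 less PNPT1 knockdown) came to -0.88 ± 0.44 (SE), the smallest p among the members (unadjusted p = 0.0692, edgeR adjusted p = 0.898), and -0.20 without PNPT1 knockdown replicate 3. SDHA has 3 named pseudogenes, so reads that align to more than 1 copy may be missing from its counts.

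The other complex II genes encode the iron-sulphur subunit (SDHB) and the membrane anchors (SDHC and SDHD). SDHB measured 48.8, 40.0 and 84.7 CPM with PNPT1 knocked down, against 70.0, 37.2 and 70.3 CPM with SUPV3L1 knocked down. SDHD measured 28.8, 19.9 and 40.2 CPM with PNPT1 knocked down, against 28.0, 28.4 and 37.0 CPM with SUPV3L1 knocked down. SDHC was the one member for which PNPT1 knockdown replicate 3 had the lowest CPM, at 59.4 against 76.6 and 64.5 in the other PNPT1 knockdown libraries, and the SUPV3L1 knockdown libraries were at 73.8, 62.4 and 97.6. The groups overlapped for all 3 genes, with log2 fold changes of 0.04 ± 0.38 for SDHB, 0.22 ± 0.30 for SDHC and 0.08 ± 0.34 for SDHD (SE). Without PNPT1 knockdown replicate 3 these were 0.41, 0.13 and 0.35. By FPKM, which is scaled to gene length, SDHB and SDHD were the highest of the complex, with means of 16.7 and 16.4 over the 6 libraries, and SDHC the lowest, at 4.21.

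In complex III, 7 of 9 genes were below 0, with a median log2 fold change of -0.29 and a range of -0.95 to 0.62. The catalytic subunits are the Rieske iron-sulphur protein, UQCRFS1, and cytochrome c1, CYC1. CYC1 measured 55.0, 55.0 and 107 CPM with PNPT1 knocked down, against 75.0, 70.8 and 68.4 CPM with SUPV3L1 knocked down, a log2 fold change of -0.01 ± 0.34 (SE). The 3 SUPV3L1 knockdown values lay between the PNPT1 knockdown values. UQCRFS1 measured 41.7, 42.6 and 50.7 CPM with PNPT1 knocked down, against 68.3, 34.7 and 43.1 CPM with SUPV3L1 knocked down (0.12 ± 0.33, SE). UQCRC2, a core subunit, measured 137, 80.2 and 214 against 122, 81.9 and 119 CPM (-0.42 ± 0.39, SE). Without PNPT1 knockdown replicate 3 the log2 fold change of UQCRC2 was -0.0236, and that of UQCRFS1 was 0.20.

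Among the small subunits of complex III, UQCRB and UQCRH had the lowest p on the lower side. UQCRB (chromosome 8, 96225920 to 96235634, minus strand) measured 205, 126 and 618 CPM with PNPT1 knocked down, against 187, 140 and 164 CPM with SUPV3L1 knocked down. One library, PNPT1 knockdown replicate 3, was 3.74 times the mean of the other PNPT1 knockdown libraries, and all others lay between 126 and 205 CPM. The log2 fold change was -0.95 ± 0.53 (SE, edgeR adjusted p = 0.898), and -0.0244 without that library. UQCRH, the hinge protein that contacts cytochrome c1, measured 115, 99.7 and 324 CPM with PNPT1 knocked down, against 108, 100.1 and 108 CPM with SUPV3L1 knocked down. Its log2 fold change of -0.77 ± 0.45 (SE) became -0.0376 without PNPT1 knockdown replicate 3. UQCR11 went the other way and was the member furthest above 0, at 2.89, 7.16 and 3.84 CPM with PNPT1 knocked down, against 7.48, 9.15 and 4.87 CPM with SUPV3L1 knocked down (0.62 ± 0.51, SE). It had only 15 to 97 counts per library.

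All 10 complex IV genes were below 0, with a median log2 fold change of -0.48 and a range of -0.89 to -0.21. In CPM after TMM scaling, PNPT1 knockdown replicate 3 was the highest library for all 10. On plain library sizes it was the highest for 9, and on FPKM for 8. The 10 genes encode supernumerary subunits that surround the mitochondrially encoded core. COX7C (chromosome 5, 86617904 to 86620962, plus strand) measured 179, 102 and 429 CPM with PNPT1 knocked down, against 164, 96.8 and 121 CPM with SUPV3L1 knocked down. Its log2 fold change was -0.89 ± 0.50 (SE, edgeR adjusted p = 0.898), and -0.15 without PNPT1 knockdown replicate 3. COX5B measured 40.8, 32.7 and 140 CPM with PNPT1 knocked down, against 38.4, 41.8 and 50.5 CPM with SUPV3L1 knocked down, so that the log2 fold change of -0.70 ± 0.51 (SE) turned to 0.24 without that library. COX6C was at 47.7, 33.4 and 126 CPM against 61.5, 38.7 and 56.3 CPM (-0.40 ± 0.47, SE). COX8A was at 19.4, 14.2 and 31.5 CPM against 19.9, 15.7 and 18.8 CPM (-0.25 ± 0.37, SE). Without PNPT1 knockdown replicate 3, 9 of the 10 complex IV genes lay above 0, with a median of 0.15.

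The isoforms of complex IV subunits that are known from muscle, lung or testis had 0 or 1 counts per library beside these. COX4I2, COX6A2, COX7A1, COX7B2 and COX8C had 0 counts in each of the 6 libraries, and COX6B2 had 1 count in 2 of them. In FPKM, COX6B2 stood at 0.0218 and 0.0370 in PNPT1 knockdown replicates 2 and 3, and COX8C at 0.109 in replicate 3. Their other FPKM values, and all those of the other isoforms, were 0. A count of 0 allows up to 3 counts, or 0.264 to 0.513 CPM on plain library sizes, for counting error only.

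In complex V, 13 of 15 genes were below 0, with a median of -0.49 and a range of -1.05 to 0.29. In CPM after TMM scaling, PNPT1 knockdown replicate 3 was the highest library for 14 of 15. On plain library sizes it was the highest for 9, and on FPKM for 8. ATP5B, the catalytic beta subunit of the F1 head (chromosome 12, 56638175 to 56646068, minus strand), measured 284, 157 and 849 CPM with PNPT1 knocked down, against 307, 190 and 241 CPM with SUPV3L1 knocked down. All 3 SUPV3L1 knockdown values lay between the lowest and the highest PNPT1 knockdown value. The log2 fold change was -0.80 ± 0.56 (SE), and 0.15 without PNPT1 knockdown replicate 3. ATP5C1, the gamma subunit of the rotating central stalk, was at 93.5, 51.1 and 160 CPM against 86.2, 55.0 and 64.9 CPM (-0.56 ± 0.42, SE). ATP5I, the small membrane subunit e, had the lowest log2 fold change of the 38, -1.05 ± 0.54 (SE, edgeR adjusted p = 0.898). It measured 28.1, 21.6 and 102 CPM with PNPT1 knocked down, against 30.7, 19.4 and 22.3 CPM with SUPV3L1 knocked down, and the fold change was -0.0469 without PNPT1 knockdown replicate 3. The peripheral stalk genes ATP5J (factor F6) and ATP5O (OSCP) were the 2 not below 0, at 0.00 ± 0.33 and 0.29 ± 0.39 (SE). ATP5J was at 30.9, 21.2 and 41.5 against 35.3, 32.1 and 25.8 CPM, and ATP5O at 10.5, 10.1 and 14.8 against 20.5, 11.5 and 10.9 CPM.

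The c subunit, which forms the rotating membrane ring, is encoded by 3 genes whose mature products are known to be identical and which differ in their targeting sequences. ATP5G2 took most of their summed FPKM, 80.4%, 68.5% and 67.3% in PNPT1 knockdown and 63.0%, 66.0% and 70.0% in SUPV3L1 knockdown. ATP5G3 took 13.2% to 23.7% and ATP5G1 6.44% to 18.4% over the 6 libraries. ATP5G2 thus held the largest share of their FPKM in the precipitated RNA of each library, and the shares of the groups overlapped for all 3 genes. In CPM, ATP5G2 was at 129, 92.8 and 232 in PNPT1 knockdown and at 91.1, 95.6 and 101 in SUPV3L1 knockdown (log2 fold change -0.65 ± 0.37, SE, edgeR adjusted p = 0.898). The fold change of ATP5G2 was -0.22 without PNPT1 knockdown replicate 3. ATP5G3 was at 38.1, 42.0 and 146 against 63.6, 40.6 and 55.7 CPM (-0.49 ± 0.50, SE), and ATP5G1 at 6.97, 13.5 and 24.8 against 13.3, 18.0 and 9.85 CPM (-0.12 ± 0.48, SE). ATP5G1 has 7 named pseudogenes and ATP5G2 has 3.

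**Figure D2:**
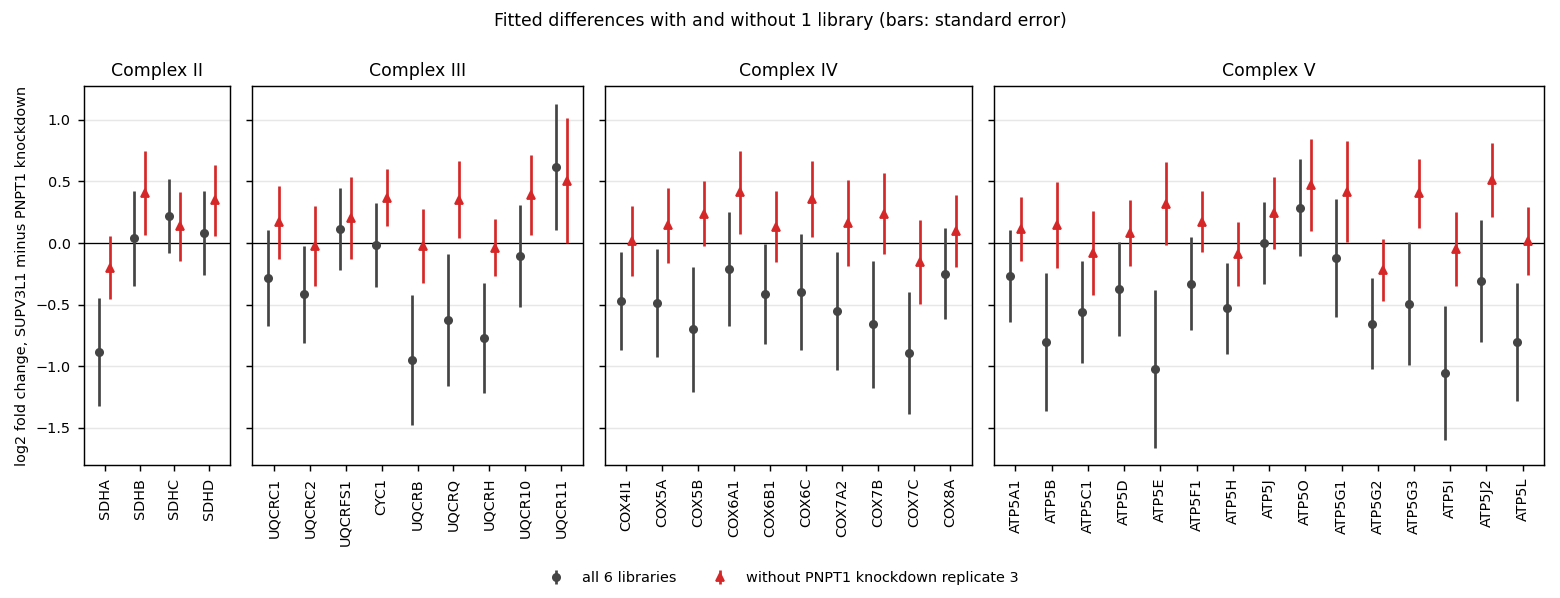
Fitted log2 fold change of each gene, SUPV3L1 minus PNPT1 knockdown, with its standard error, from all 6 libraries (grey circles) and without PNPT1 knockdown replicate 3 (red triangles). With all libraries 31 of 38 genes lie below 0, and without the 1 library 29 of 38 lie above 0.

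The 4 complexes were set side by side by their shares of the summed level. In FPKM, complex IV took 39.9% to 43.6% of the members' summed level, complex V 28.3% to 34.4%, complex III 21.3% to 24.3% and complex II 3.46% to 6.17%. The group means were 40.9% ± 1.37 and 42.5% ± 1.32 for complex IV, 32.1% ± 2.08 and 29.7% ± 1.35 for complex V, 22.6% ± 1.53 and 22.5% ± 0.687 for complex III, and 4.39% ± 0.816 and 5.26% ± 0.795 for complex II (PNPT1 and SUPV3L1 knockdown in turn, SD, n = 3). The groups overlapped for each complex. These shares rest on FPKM alone. For COX8A and COX6A1 of complex IV, FPKM was 2.94 and 3.90 times the counts per kilobase of exon, a comparison described below. It was 0.684 to 0.807 times for 32 members. The ratio was also raised for ATP5O and ATP5J2 of complex V, UQCR11 of complex III and SDHD of complex II. The order of complexes IV and V therefore depends on the measure used. PNPT1 knockdown replicate 3 had the lowest complex II share and the highest complex V share. The order of the complexes by median log2 CPM also turned in that library. Complex V had a median of 7.03 and complex II 6.15 there, whereas complex V lay below complex II in each of the other 5 libraries (4.88 to 5.34 against 5.53 to 6.07). CPM is not scaled to gene length, so these medians are compared between libraries and not between genes. The summed FPKM of the 38 genes was 1029, 707 and 1250 in PNPT1 knockdown and 1027, 743 and 844 in SUPV3L1 knockdown, and the groups overlapped.

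Within complexes the levels per gene length spread widely. The mean FPKM over the 6 libraries ran from 4.21 to 16.7 in complex II, from 10.5 to 68.6 in complex III, from 13.1 to 113 in complex IV and from 3.94 to 95.4 in complex V, although each complex holds its subunits in fixed numbers. COX8A was the highest of all, at 123, 88.4 and 98.2 FPKM in PNPT1 knockdown and at 141, 96.5 and 129 FPKM in SUPV3L1 knockdown. ATP5B, UQCRH and COX7C followed, at means of 95.4, 68.6 and 67.6 FPKM. In FPKM the groups did not overlap for 3 of 38 members, against 6.72% of all genes tested, so the members were near the share of all genes. In CPM the groups of these 3 genes overlapped. CYC1 was higher in SUPV3L1 knockdown, at 30.5, 28.7 and 26.4 against 25.6, 23.8 and 25.7 FPKM. UQCR11 was also higher, at 22.1, 17.7 and 14.3 against 11.4, 13.5 and 13.5 FPKM, and ATP5G2 was lower, at 19.0, 19.9 and 20.4 against 30.3, 20.6 and 29.9 FPKM. None of the 38 passed limma on log2(FPKM + 0.1), and on that scale the median over the members was -0.13 and that over all genes 0.17. The sign differed from the count fit for CYC1 (0.19), COX8A (0.24) and ATP5G1 (0.09).

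The mitochondrially encoded partners of complexes III, IV and V had another order of libraries than the nuclear subunits. In complex IV, the summed FPKM of MT-CO1, MT-CO2 and MT-CO3 was 27.4, 57.2 and 8.74 times that of the 10 nuclear genes in PNPT1 knockdown and 37.6, 45.0 and 60.0 times in SUPV3L1 knockdown. In complex V, the ratio for MT-ATP6 and MT-ATP8 was 25.7, 37.5 and 6.67 in PNPT1 knockdown and 26.0, 46.4 and 46.8 in SUPV3L1 knockdown. For complex III, with MT-CYB as the partner, it was 17.2, 18.4 and 3.03 against 9.76, 11.6 and 26.5. PNPT1 knockdown replicate 3 was the lowest library in each of these ratios, and the groups overlapped in all 3. These ratios do not depend on how libraries are scaled to each other. The log2 fold changes of the 6 mitochondrial genes were all above 0 (median 0.47, and 0.23 without PNPT1 knockdown replicate 3), and those of complexes III, IV and V were mostly below it with all libraries, and neither set had a member past the threshold. MT-CO2, a core subunit of complex IV, had the smallest p of the 6 mitochondrial genes. It stood at 2617, 4467 and 1888 CPM in PNPT1 knockdown, and the SUPV3L1 knockdown libraries were all higher, at 5814, 5681 and 8018 CPM. Its log2 fold change was 1.12 ± 0.53 (SE, edgeR adjusted p = 0.898), and 0.87 ± 0.38 without PNPT1 knockdown replicate 3 (adjusted p = 0.999). MT-ATP6, a proton channel subunit of complex V named here because its groups did not overlap either, stood at 2385, 2949 and 1703 CPM against 3970, 3809 and 5004 CPM (0.86 ± 0.47, SE, edgeR adjusted p = 0.898). The CPM of the groups overlapped for the other 4. Over all genes tested, the groups did not overlap for 8.56%, and SUPV3L1 knockdown was the higher group for 4.62%.

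**Figure D3:**
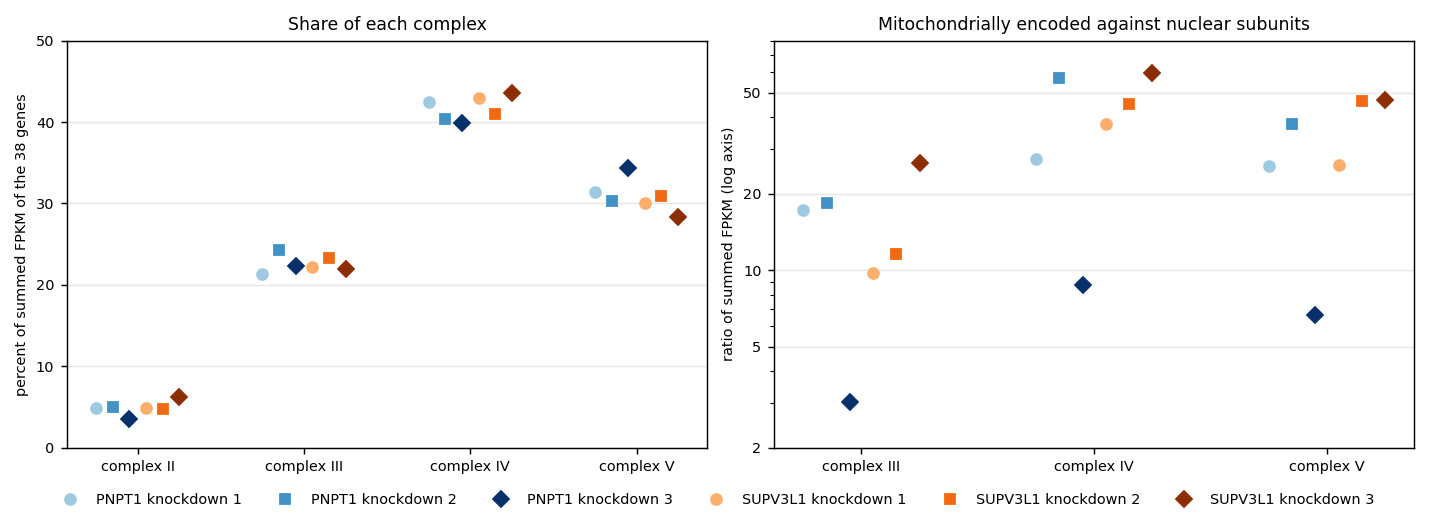
Left, the share of each complex in the summed FPKM of the 38 genes (percent). Right, the summed FPKM of mitochondrially encoded subunits divided by that of nuclear subunits of the same complex (log axis). Each point is 1 library. The complex II share runs from 3.46% to 6.17%, and PNPT1 knockdown replicate 3 has the lowest ratio in each of the 3 complexes, 3.03, 8.74 and 6.67.

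For 6 members the 2 deposited measures gave different pictures of the level. The mean FPKM was divided by the mean count per kilobase of annotated exon, scaled to library size (GENCODE 29 exons). The ratio lay between 0.684 and 0.807 for 32 members and at 1.55 for SDHD, 1.92 for ATP5J2, 2.94 for COX8A, 3.90 for COX6A1, 4.02 for ATP5O and 5.48 for UQCR11. In GENCODE 29 these 6, and no other member, share exon bases with another protein-coding gene on the same strand. The shared part was 34.5% of the exon bases of COX8A, 19.6% of ATP5O, 13.0% of COX6A1, 11.2% of SDHD and 10.9% of UQCR11, and for ATP5J2 it was 7.78% with a gene named as its read-through into PTCD1. The overlapping genes other than PTCD1 had 0 to 3 counts per library. The 9 members that share exon bases with a protein-coding gene only on the opposite strand had ratios of 0.684 to 0.807, and the other 23 had 0.697 to 0.800. In its default mode HTSeq leaves a read that falls on 2 genes unassigned, but no source read here states the mode, the strand setting or the annotation, and whether overlap lowered these counts was not tested. The split was noticed after the values were seen, and COX6A1 and ATP5J2 are named for it alone. COX8A ranked 1 of 38 by FPKM and 5 by counts per kilobase, and UQCR11 ranked 25 and 38. ATP5I had the lowest ratio, 0.684, followed by UQCRC2, 0.697.

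**Figure D4:**
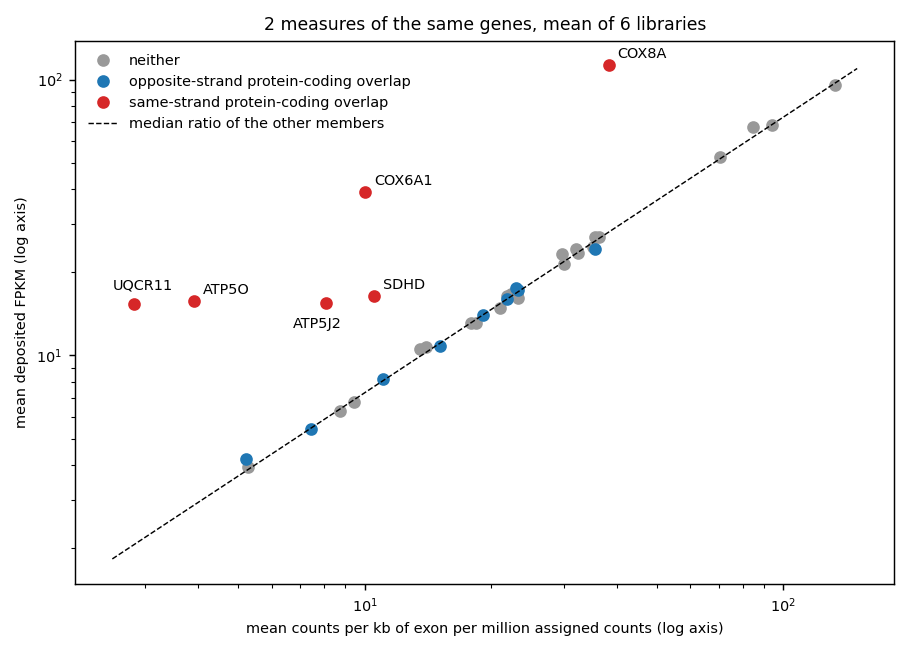
Mean deposited FPKM against mean counts per kilobase of exon, scaled to library size (both log axes, mean of 6 libraries), 1 point for each of the 38 genes, with the dashed line at the median ratio of the 32 members without same-strand protein-coding overlap. The 6 red points, which have such an overlap, lie above the line at ratios of 1.55 to 5.48.

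Other genes of the pathway were described from lists of known function. Of 36 nuclear subunit genes of complex I that could be tested, 28 were below 0 (median -0.26) and 0 passed. NDUFS7, an iron-sulphur subunit, had the smallest p, with a log2 fold change of -1.03 ± 0.44 (SE). It measured 20.2, 20.8 and 55.5 CPM with PNPT1 knocked down, against 12.7, 14.9 and 19.2 CPM with SUPV3L1 knocked down. Without PNPT1 knockdown replicate 3, 24 of 37 were above 0 (median 0.06), the same turn as in complexes III, IV and V. Another list held mostly assembly factors of complexes II to V, with LRPPRC and TACO1 also on it. Of its 34 tested genes, 17 were above and 17 below 0 (median 0.01), and 0 passed. SCO2, which delivers copper to complex IV, measured 3.18, 4.02 and 1.79 CPM with PNPT1 knocked down, against 8.88, 8.58 and 7.15 CPM with SUPV3L1 knocked down. SCO2 had only 7 to 108 counts per library, with the 7 in PNPT1 knockdown replicate 3. Its log2 fold change of 1.42 ± 0.48 (SE) did not pass edgeR's test (adjusted p = 0.898), and it was 1.18 without PNPT1 knockdown replicate 3. Without that library, 23 of the 34 genes of this list were above 0 (median 0.12).

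Of 10 regulators of respiratory genes, 4 were above 0 (median -0.07, 0 passed), and PPRC1, a coactivator of the PGC-1 family, had the smallest p (1.15 ± 0.50, SE). Of 13 citric acid cycle enzymes, 4 were above 0 (median -0.29, 0 passed), with OGDH at 0.65 ± 0.34 (SE). Of 8 other subunits and partners, among them cytochrome c (CYCS) and the inhibitor ATPIF1, 2 were above 0 (median -0.67, 0 passed), with C14orf2, a small ATP synthase subunit, at -1.07 ± 0.60 (SE). The 7 myeloid markers tested had a median of 0.22 with 5 above 0, and CD33 had the smallest p (0.59 ± 0.30, SE). ITGA2B, the only marker of other blood lineages tested, was at -0.17. Without PNPT1 knockdown replicate 3 the medians were 0.18 for the citric acid cycle enzymes, 0.16 for the other subunits and partners, and -0.01 for the regulators.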

How the data were processed

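The series held 3 PNPT1 knockdown and 3 SUPV3L1 knockdown libraries of J2-precipitated RNA. Per the submitters' processing notes, HISAT2 2.2.1, SAMtools 1.14, StringTie 2.1.4 and HTSeq were used. The authors deposited read counts per gene for each library (whole numbers, not normalized) and 1 table of FPKM values for the 6 libraries. The HTSeq version, mode, strand setting and annotation release were not stated, so reads of a gene and of an antisense or near-identical gene may not be separable. The 5 summary lines of each count table name no gene and were left out: 65.7% to 80.1% of entries were alignments that were not unique, and 7.06% to 16.0% were assigned to genes. No per-sample column was left unused (0).

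Counts were fitted in R 4.3.3 with edgeR 4.0.16 (TMM scaling, filterByExpr with a minimum count of 10 and a minimum total of 15, quasi-likelihood test, Benjamini-Hochberg adjustment over 13275 genes, threshold 0.05), with group as the only term. The edgeR fit was also tested on simulated counts whose means and library sizes came from these data. All simulated libraries had the same gene means, apart from changes put in between the groups. That run therefore does not show how the fit behaves with a library like PNPT1 knockdown replicate 3. Alternatives were DESeq2 1.42.0, its size factors in edgeR, limma 3.58.1 on log2(FPKM + 0.1) and log2(FPKM + 1), no filter, a minimum of 50 counts, mitochondrially encoded genes left out, each library left out in turn and, chosen after seeing the data, plain library sizes. Positions and exon overlaps came from GENCODE 29 and promoters from RefSeq. The members and lists were chosen with earlier results of these data known. Named with values in each library were, in each complex, the 2 highest and the lowest member by mean FPKM and the 2 smallest p in each direction, plus the 3 c subunit genes and the 2 highest and 2 lowest ratios of FPKM to counts per length. Of each list with tested genes, the gene with the smallest p was named.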

Additional observations from a re-analysis of the deposited data

How the results depend on the processing

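No member passed in any alternative run. The number of genes passing was 18 with DESeq2, 187 with no filter (107 higher, 80 lower, 28015 genes tested) and 0 to 1 with 1 library left out (1 without SUPV3L1 knockdown replicate 2). With 1 library left out, the median log2 fold change ranged from -0.72 to 0.17 for the members, -0.17 to 0.24 for complex II, -0.57 to 0.20 for complex III, -0.73 to 0.15 for complex IV and -0.78 to 0.15 for complex V. The top of each range came without PNPT1 knockdown replicate 3. The same ranges crossed 0 for SDHB (-0.18 to 0.41), SDHD (-0.15 to 0.35), UQCRFS1 (-0.22 to 0.30), CYC1 (-0.19 to 0.37), COX5B (-1.05 to 0.24), COX6C (-0.74 to 0.35), COX8A (-0.49 to 0.10), ATP5B (-1.21 to 0.15), ATP5J (-0.22 to 0.25), ATP5O (-0.0746 to 0.47), ATP5G1 (-0.47 to 0.42) and ATP5G3 (-0.82 to 0.40). ATP5J turned to -0.0294 with DESeq2's size factors, -0.0280 with DESeq2 and -0.0122 without mitochondrially encoded genes. CYC1 turned to 0.0172 with no filter, 0.0137 with the filter of 50 counts, 0.186 and 0.180 on log2(FPKM + 0.1) and log2(FPKM + 1), and 0.172 on plain library sizes. On the 2 FPKM scales COX8A turned to 0.239 and 0.237 and ATP5G1 to 0.0923 and 0.0748, and on plain library sizes ATP5G1 to 0.117. The cause was not tested. UQCR11 failed the filter of 50 counts, so 37 members were tested there. With 3 libraries a group and as few as 15 counts for a member, a p that misses the threshold does not show equal levels. No paired analysis was possible because the labels give the libraries no shared replicate numbers.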

Other observations

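Gene length was set beside the members' levels in PNPT1 knockdown replicate 3. Across the 38 genes, log2 median transcript length and the log2 ratio of that library to the mean of the other PNPT1 knockdown libraries had Pearson's r = -0.03 and Spearman's rho = -0.03. Across 12640 genes r was -0.19. Genes are not independent replicates, and all points share the same 3 libraries.

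Pseudogenes carry the names of 27 of the 38 members, 102 in all, and 6 of these pseudogenes had a mean FPKM above 1. SDHAP1, named after SDHA, had a mean FPKM of 3.29, where SDHA had 6.78.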
